A study of Homo sapiens with 12 samples.

Results

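ATF4, CHOP (encoded by DDIT3) and their partners are the transcription factors and feedback proteins of the integrated stress response. The set described here holds 9 genes: ATF4, ATF3, ATF5, DDIT3, CEBPB, CEBPG, TRIB3, NUPR1 and PPP1R15A. They were chosen by name from the known pathway and not by a cut on their values. Of 22215 probe sets on each array, 12 name only a member, and each gene is given by its brightest probe set, averaged over all 12 arrays. ATF5 has 3 probe sets, PPP1R15A has 2 and the other members have 1 each. The 9 members are among 11963 genes measured.

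The cells were RCC4, a human clear cell renal carcinoma line that lacks functional VHL, the protein that targets hypoxia-inducible factors for degradation. They carried either an empty vector (Vec cells) or a reintroduced VHL (VHL cells). Both lines spent 6 h in complete DMEM (control medium) or in cystine-free DMEM; cystine is the oxidised form of cysteine that cells import. Serum was 10% in both media. The labels call the serum dialysed for the cystine-free medium and do not use that word for the control medium. If the serum differed, its effect and that of cystine loss cannot be told apart. There are 3 arrays in each of the 4 groups, numbered by the labels as biological replicates without a statement that they were separate cultures. The p-values therefore measure the spread between these samples, which may be technical. Whether either line is a clone or a pool, and the vector's promoter, are not given in the sources used here.

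Cells sense a lack of amino acids, misfolded protein or oxidative stress through kinases that phosphorylate the initiation factor eIF2. General translation then slows while the ATF4 mRNA, whose upstream reading frames otherwise divert ribosomes, is translated better, so that ATF4 protein can rise with little change of its mRNA. ATF4 binds DNA as a dimer with other basic leucine zipper (bZIP) proteins, among them the C/EBP family, and drives genes of amino acid supply together with ATF3, DDIT3, TRIB3 and PPP1R15A. The arrays measured mRNA and not protein or eIF2 phosphorylation.

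Array medians lay between 7.12 and 7.18 on the deposited log2 scale, with lower quartiles of 5.53 to 5.63 and upper quartiles of 9.15 to 9.18. The number of arrays limits the precision. A mean above 6.47, a cut used to drop dim genes only in an alternative fit, was reached by 7975 of the 11963 genes. Renal epithelial markers matched the labelled cells: 8 of 8 lay above 6.47, and PAX8 had a mean of 10.92. None of 5 genes of proximal tubule function and none of 4 endothelial markers did, against 1 of 4 blood markers (HBB, 6.98) and 1 of 4 fibroblast markers (COL1A1, 8.04). The VHL probe set was dim in all groups. It read 5.85 ± 0.04 in Vec and 5.99 ± 0.03 in VHL cells in control medium (SD, n = 3), a difference of 0.14 ± 0.05 (SE) with an adjusted p of 0.0532, and -0.05 without cystine (adjusted p = 0.475). It therefore did not separate the lines. EGLN3, a prolyl hydroxylase gene induced by hypoxia-inducible factors, was lower in VHL than in Vec cells by a log2 difference of -3.24 ± 0.06 in control medium (adjusted p = 1.97e-13) and -3.11 without cystine. These are bulk samples, so fewer cells with a transcript and less of it per cell cannot be told apart.

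Short stretches of member promoters are shown here to give the letters of each motif searched, most of them elements that ATF4, C/EBP or related bZIP proteins are known to bind. No bZIP motif was found in more than 2 of the members. The promoter windows are from RefSeq on GRCh38.p14 and span 250 bases before to 50 bases after an annotated start. Of the 9 members, 8 had at least 1 window, with 17 windows in all. NUPR1 was not matched. Both strands were searched, and the capitals mark the match. Each stretch is written 5′ to 3′ on the gene's strand.
ATF3, chr1:212565205-212565234 (+): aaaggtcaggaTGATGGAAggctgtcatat
CEBPG, chr19:33374060-33374089 (+): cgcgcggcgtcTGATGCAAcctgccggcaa
PPP1R15A, chr19:48872352-48872381 (+): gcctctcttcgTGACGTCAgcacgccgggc
DDIT3, chr12:57520599-57520625 (-): acggggcggggCCAATgccggcgtgcc
DDIT3, chr12:57520738-57520766 (-): gcgcgcgcgcaTGACTCAcccacctcctc
ATF5, chr19:49928707-49928735 (+): ggagagtgctgTGACTCAtgctggactct
ATF4, chr22:39520467-39520493 (+): aggagacggtcACGTGgtcgcggcgga

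The first motif, TGATGNAA, is the composite element of a C/EBP and an ATF recognition sequence. It was found in windows of 2 members, ATF3 (191 bases before the start) and CEBPG (42 bases before it), and in 3.62% of all 35116 windows. The full cyclic AMP response element TGACGTCA lay 58 bases before a PPP1R15A start and in 1.85% of all windows. The shorter TGACGT was found in PPP1R15A alone among the members, within that element and again 152 bases before the start, and in 7.98% of windows. The AP-1 element TGACTCA was found in ATF5 and DDIT3 and in 4.95% of windows. ACGTG, the form with A of the hypoxia response core RCGTG (R stands for A or G), was found in ATF4 and in 21.4%. The form GCGTG was not searched. CCAAT, bound by NF-Y, was found in ATF3, CEBPB, CEBPG and DDIT3 and in 34.6%. These shares are of single windows, whereas a member counts with a match in any of its windows. Of the 17 member windows, 2 held TGATGNAA, 1 TGACGTCA, 1 TGACGT, 3 TGACTCA, 2 ACGTG and 6 CCAAT. A match describes the letters of the window and is not a measured binding site.

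The first comparison asked how the members responded to 6 h without cystine in each line. In VHL cells 8 of the 9 members rose and ATF5 fell. In Vec cells 7 rose, ATF5 fell and ATF4 did not pass the test. Called means an adjusted p under 0.05 in limma's moderated test with Benjamini-Hochberg adjustment over the 11963 genes. Over all genes, 2.11% were called higher and 2.06% lower in Vec cells, and 6.16% and 5.48% in VHL cells. The median log2 change was 0.82 over the members against 0.006 over all genes in Vec cells, and 1.01 against 0.014 in VHL cells. A member's own exact permutation test of 3 arrays against 3 cannot give a two-sided p below 0.1. All members reached that value in both lines, since none had overlapping groups, ATF4 in Vec cells included. How many of all genes had groups without overlap was not counted, so this count of members has no background beside it.

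**Figure D1:**
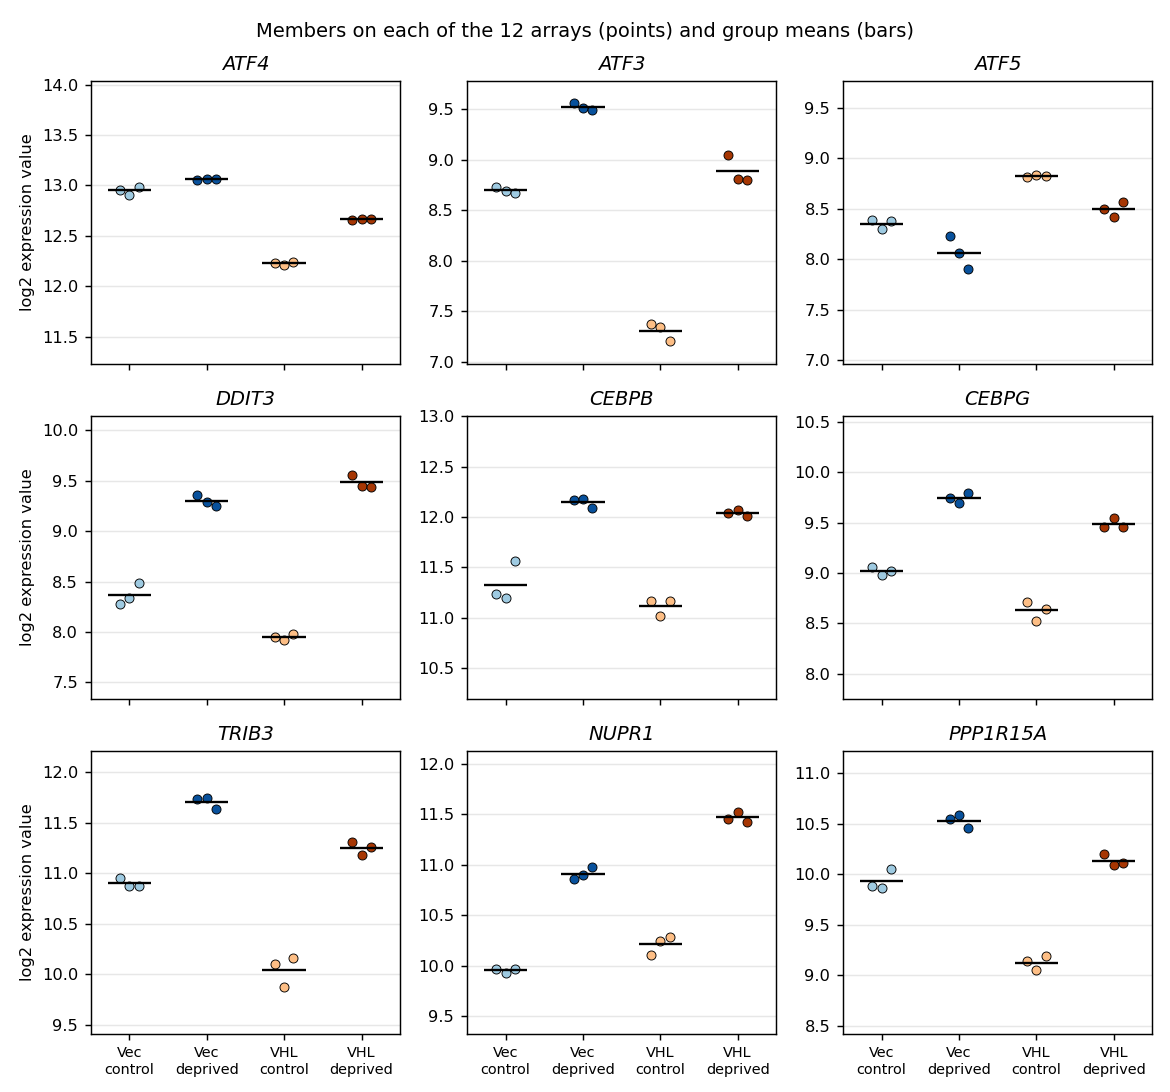
Deposited log2 level of each of the 9 members on every array (points), by line and medium, with the mean of each group of 3 arrays as a bar; each panel spans the same log2 range around its own level. The ATF4 arrays run from 12.21 to 13.06 with both Vec groups above both VHL groups, and ATF3 and DDIT3 differ most between the media in VHL cells.

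ATF4, the factor at the head of the branch, rose in VHL cells by the smallest log2 change of the 8 members that rose there. Its mean over the arrays was 12.72, below the top of the scale, since the highest value on an array ranged from 14.69 to 14.79. In Vec cells its log2 level was 12.95, 12.91 and 12.98 in control medium and 13.05, 13.06 and 13.06 without cystine. In VHL cells it was 12.23, 12.21 and 12.24, and 12.66, 12.67 and 12.67. The arrays without cystine lay above those in control medium in both lines, by a narrow margin in Vec cells. The log2 change was 0.11 ± 0.04 (SE; 95% confidence interval 0.02 to 0.2, adjusted p = 0.17) in Vec cells, and 0.44 ± 0.04 (1.36-fold, adjusted p = 1.58e-05) in VHL cells. The Vec value passed the threshold in 1 of 15 alternatives, limma's variance trend with robust moderation (adjusted p = 0.0257).

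DDIT3, whose product CHOP dimerises with C/EBP proteins and is linked to cell death under lasting stress, was among the most strongly raised genes of the array. It read 8.28, 8.34 and 8.49 in Vec cells in control medium and 9.36, 9.29 and 9.25 without cystine. In VHL cells the values were 7.95, 7.92 and 7.98, and 9.56, 9.45 and 9.44. The VHL cells thus had the lowest levels with cystine and the highest without it. DDIT3 rose 1.91-fold in Vec cells (log2 change 0.93 ± 0.06, adjusted p = 1.02e-06) and 2.9-fold in VHL cells (1.54 ± 0.06, adjusted p = 3.65e-09). Ranked by log2 change among all genes, it stood at 13 in Vec and 11 in VHL cells.

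ATF3, an immediate stress-responsive bZIP factor, rose most of all members in VHL cells. The Vec arrays read 8.73, 8.69 and 8.67 with cystine and 9.56, 9.51 and 9.49 without it. The VHL arrays read 7.37, 7.34 and 7.2 with cystine and 9.05, 8.81 and 8.8 without it. Every array without cystine exceeded every control array of either line, although the VHL arrays without cystine lay close above the Vec controls. The change was 1.77-fold in Vec cells (log2 0.82 ± 0.07, adjusted p = 1.37e-05) and 3.0-fold in VHL cells (1.58 ± 0.07, adjusted p = 1.12e-08). ATF3 ranked 17 and 8 by log2 change.

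ATF5, a bZIP factor whose mRNA is, like that of ATF4, translated better when eIF2 is phosphorylated, was the only member that fell. In Vec cells it read 8.39, 8.3 and 8.38 with cystine and 8.23, 8.06 and 7.9 without it. In VHL cells it read 8.81, 8.83 and 8.82, and 8.5, 8.42 and 8.57. The log2 change was -0.29 ± 0.07 in Vec cells (adjusted p = 0.0416) and -0.32 ± 0.07 in VHL cells (adjusted p = 0.0129). The Vec call was lost when any 1 of 5 of the 6 Vec arrays was left out (adjusted p = 0.0692 to 0.131), the exception being replicate 1 without cystine. A second ATF5 probe set gave -0.34 (adjusted p = 0.0485) and -0.44 (adjusted p = 0.00633), and a dim probe set, with group means of 6.64 to 6.81, gave -0.07 (adjusted p = 0.737) and 0.13 (adjusted p = 0.323).

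The C/EBP partners rose in both lines. CEBPB encodes an activator that pairs with ATF4 and with CHOP, and CEBPG encodes a short partner of ATF4 known for control of antioxidant and amino acid genes. CEBPB read 11.24, 11.2 and 11.56 in Vec control arrays and 12.17, 12.18 and 12.09 without cystine. In VHL cells it read 11.17, 11.02 and 11.17, and 12.04, 12.07 and 12.01. Replicate 3 of the Vec controls was the highest control array. CEBPB rose 1.76-fold in Vec (log2 0.82 ± 0.08, adjusted p = 6.9e-05) and 1.89-fold in VHL cells (0.92 ± 0.08, adjusted p = 1.45e-05). CEBPG read 9.06, 8.98 and 9.02 in Vec controls and 9.74, 9.69 and 9.79 without cystine, against 8.71, 8.52 and 8.64 and then 9.46, 9.55 and 9.46 in VHL cells. Its rise was 1.65-fold (0.72 ± 0.06, adjusted p = 8.69e-06) and 1.82-fold (0.86 ± 0.06, adjusted p = 7.98e-07).

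The feedback members rose as well. TRIB3 is a pseudokinase that binds ATF4 and CHOP and restrains them. It read 10.95, 10.87 and 10.87 in Vec controls and 11.74, 11.75 and 11.64 without cystine. In VHL cells it read 10.1, 9.87 and 10.16, and then 11.31, 11.18 and 11.26. The VHL controls were the lowest arrays, and TRIB3 rose 1.76-fold in Vec (log2 0.82 ± 0.07, adjusted p = 2.04e-05) and 2.31-fold in VHL cells (1.21 ± 0.07, adjusted p = 2.79e-07).

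PPP1R15A encodes GADD34, which guides protein phosphatase 1 to eIF2 and so ends the translational block. It read 9.88, 9.86 and 10.05 in Vec controls and 10.55, 10.59 and 10.46 without cystine. In VHL cells it read 9.14, 9.05 and 9.19, and then 10.2, 10.09 and 10.11. The VHL arrays without cystine lay just above the Vec controls. The rise was 1.52-fold (log2 0.6 ± 0.06, adjusted p = 0.000102) and 2.01-fold (1.01 ± 0.06, adjusted p = 4.99e-07). Its other probe set gave 0.68 and 0.99.

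NUPR1 encodes a small stress-induced nuclear protein. It read 9.97, 9.93 and 9.97 in Vec controls and 10.86, 10.9 and 10.98 without cystine. In VHL cells it read 10.11, 10.24 and 10.28, and then 11.45, 11.52 and 11.42. Unlike most members, NUPR1 was highest in VHL cells in either medium. It rose 1.94-fold in Vec (log2 0.96 ± 0.05, adjusted p = 3.35e-07) and 2.39-fold in VHL cells (1.26 ± 0.05, adjusted p = 1.15e-08).

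**Figure D2:**
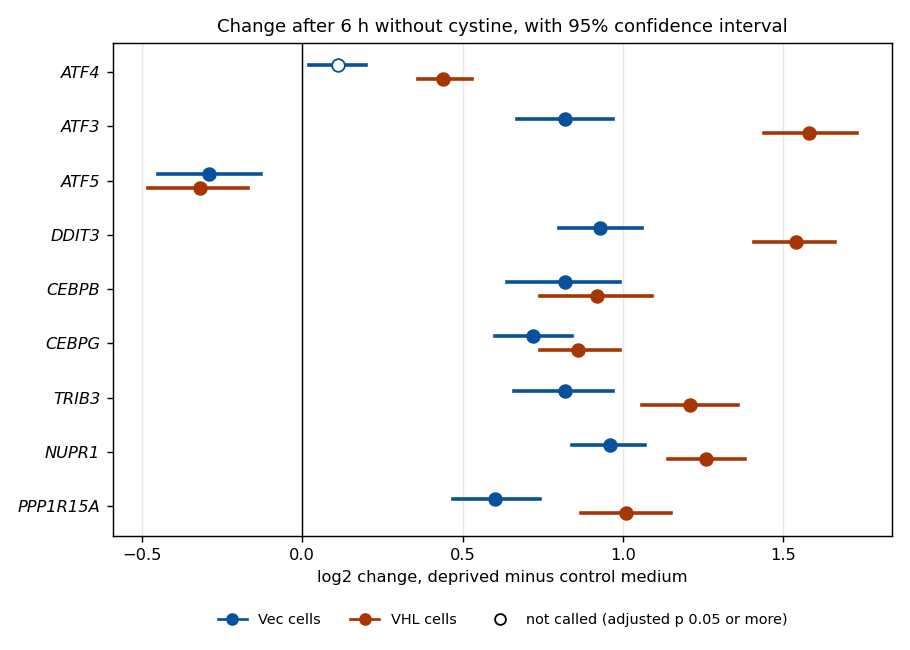
Log2 change of each member after 6 h without cystine (points) with its 95% confidence interval (lines), in Vec and in VHL cells. Open points were not called: ATF4 in Vec cells, at 0.11. ATF5 is the only member left of 0 in both lines.

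The next comparison asked whether the response differed between the lines, as the change in VHL cells minus the change in Vec cells. ATF3, DDIT3 and ATF4 rose more in VHL than in Vec cells, and 6 members did not pass the test. Over all genes 0.125% were called with a larger and 0.00836% with a smaller change in VHL cells, 16 genes in all. The median difference was 0.33 over the members and 0.007 over all genes. The change was larger in VHL cells for 8 of the 9 members (88.9%), against 52.3% of all genes.

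The difference of responses was 0.76 ± 0.1 for ATF3 on the log2 scale (adjusted p = 0.00523) and 0.6 ± 0.08 for DDIT3 (adjusted p = 0.01). Leaving out any 1 of the 12 arrays kept both calls, with adjusted p of 0.00657 to 0.0267 for ATF3 and 0.0139 to 0.0418 for DDIT3. For ATF4 it was 0.33 ± 0.06 (adjusted p = 0.0416). The ATF4 estimate moved little, from 0.32 to 0.35, but the call was lost without any 1 of the 12 arrays (adjusted p = 0.0682 to 0.126) and with each array centred on its median (adjusted p = 0.0828).

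For the 6 members that did not pass, the intervals show what remains possible. PPP1R15A differed by 0.41 (95% confidence interval 0.22 to 0.6, adjusted p = 0.16), TRIB3 by 0.39 (0.18 to 0.61, adjusted p = 0.232) and NUPR1 by 0.3 (0.13 to 0.47, adjusted p = 0.232). These 3 intervals lie above 0 before adjustment over all genes. CEBPG differed by 0.15 (-0.03 to 0.32, adjusted p = 0.561), CEBPB by 0.1 (-0.15 to 0.35, adjusted p = 0.805) and ATF5 by -0.03 (-0.25 to 0.19, adjusted p = 0.941). PPP1R15A passed in 1 of 21 alternatives, limma's variance trend with robust moderation (adjusted p = 0.021). Its other probe set gave a difference of 0.31 (adjusted p = 0.378).

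The lines were then compared within each medium. The response difference above is made of the same arrays, so these values describe where it lies and add no independent evidence. In control medium 7 members were lower and 2 higher in VHL than in Vec cells. All 9 were called, where 23.1% of all genes were called higher and 23.0% lower, so calls as such were common in this comparison. Without cystine 5 members were lower, 3 higher and CEBPB was not called, where 24.2% of all genes were higher and 23.0% lower. The median member difference was -0.42 in control medium (all genes -0.001) and -0.25 without cystine (all genes 0.003).

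ATF3 differed most between the lines. In control medium it was 2.63-fold lower in VHL cells (log2 -1.4 ± 0.07, adjusted p = 2.25e-09), and without cystine 1.55-fold lower (-0.63 ± 0.07, adjusted p = 4.08e-06). The feedback genes and ATF4 were also lower in VHL cells in both media. TRIB3 was 1.81-fold lower with cystine (-0.85 ± 0.07, adjusted p = 3.43e-07) and 1.38-fold lower without it (-0.46 ± 0.07, adjusted p = 9.87e-05). PPP1R15A was 1.75-fold lower (-0.81 ± 0.06, adjusted p = 1.8e-07) and 1.32-fold lower (-0.4 ± 0.06, adjusted p = 0.00012). ATF4 was 1.65-fold lower (-0.72 ± 0.04, adjusted p = 7.13e-09) and 1.31-fold lower (-0.39 ± 0.04, adjusted p = 2.62e-06).

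DDIT3 changed its order between the media. It was lower in VHL cells with cystine (log2 -0.42 ± 0.06, adjusted p = 5.27e-05) and higher in them without it (0.18 ± 0.06, adjusted p = 0.0204). The second call was lost without Vec replicate 2 (adjusted p = 0.0541) or 3 (adjusted p = 0.074) or VHL replicate 1 (0.15, adjusted p = 0.0848), all of the medium without cystine. CEBPG was lower in VHL cells in both media (-0.39 ± 0.06, adjusted p = 5.63e-05, and -0.25 ± 0.06, adjusted p = 0.00235). CEBPB was lower in control medium by -0.21 ± 0.08 (adjusted p = 0.0483), a call lost without Vec control replicate 3 (-0.1, adjusted p = 0.22) or any 1 VHL control array (adjusted p up to 0.175, at -0.16 without replicate 2). Without cystine its difference was -0.11 (95% confidence interval -0.29 to 0.06, adjusted p = 0.291).

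NUPR1 and ATF5 were the 2 members higher in VHL cells in both media. NUPR1 was 1.19-fold higher with cystine (log2 0.25 ± 0.05, adjusted p = 0.00177) and 1.47-fold higher without it (0.55 ± 0.05, adjusted p = 1.85e-06). ATF5 was 1.38-fold higher (0.47 ± 0.07, adjusted p = 0.000111) and 1.35-fold higher (0.43 ± 0.07, adjusted p = 0.000201). The dim ATF5 probe set was called in neither medium, at -0.03 with cystine (adjusted p = 0.793) and 0.17 without it (adjusted p = 0.0896).

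**Figure D3:**
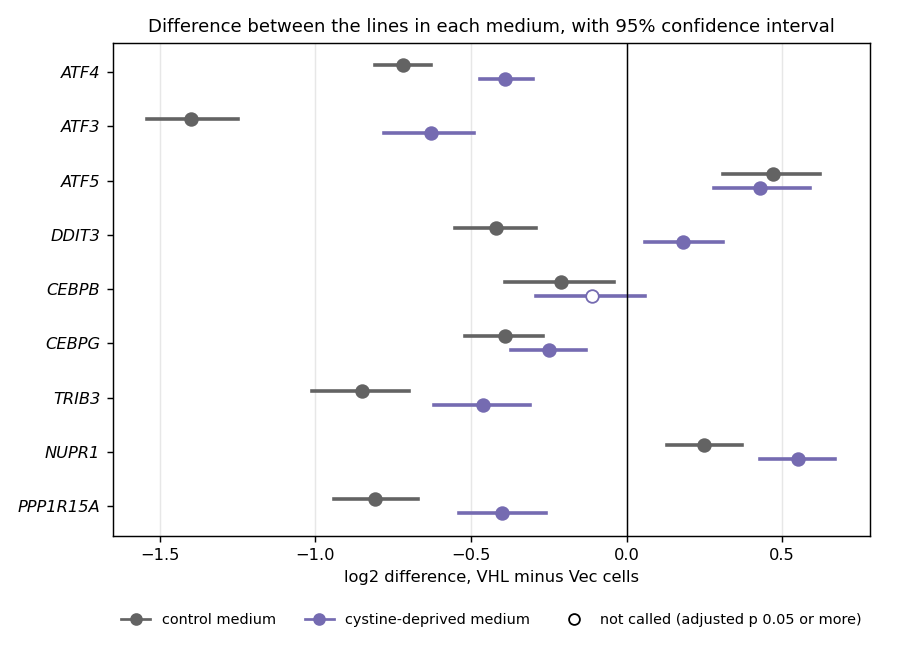
Log2 difference between VHL and Vec cells for each member (points) with its 95% confidence interval (lines), in control medium and without cystine. DDIT3 lies at -0.42 with cystine and at 0.18 without it, and ATF5 and NUPR1 lie right of 0 in both media.

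To place the 4 groups in order, VHL cells without cystine were also compared with Vec cells in control medium, a comparison of line and medium at once that was added after the data had been seen. In it 7 members were higher, ATF4 was lower and ATF5 was not called (0.14, adjusted p = 0.123), where 25.2% of all genes were called higher and 22.8% lower. ATF3, CEBPB, CEBPG, TRIB3 and PPP1R15A shared an order from Vec without cystine, through VHL without cystine and Vec control, to VHL control. ATF3 and PPP1R15A were close in the middle of it: VHL cells without cystine exceeded Vec controls by 0.19 (adjusted p = 0.0359) and 0.2 (adjusted p = 0.0167), and each call was lost without 1 of several arrays (adjusted p up to 0.166 and 0.0695). CEBPB did not differ beyond the threshold between the lines without cystine.

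ATF4 had another order, with both Vec groups above both VHL groups. VHL cells without cystine stayed below Vec cells with cystine by -0.28 ± 0.04 (1.21-fold, adjusted p = 5.39e-05), and the 2 Vec groups were not separated by the test. DDIT3 and NUPR1 were highest in VHL cells without cystine, 1.12 (adjusted p = 4.66e-09) and 1.51 (adjusted p = 1.47e-10) above Vec controls. ATF5 ran the other way, highest in VHL cells with cystine and lowest in Vec cells without it.

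The genes around the members in the pathway were taken as lists. Their counts stand beside the shares of all genes, 2.11% called higher and 2.06% lower in Vec cells, and 6.16% and 5.48% in VHL cells. In the difference of responses 0.125% of all genes had a larger and 0.00836% a smaller change in VHL cells. Upstream, 19 of 23 genes of the kinases and the eIF2 machinery were measured. In Vec cells 1 was called higher and none lower, with a median of -0.0. In VHL cells 1 was higher and 3 were lower, with a median of -0.03, where 6.16% of all genes were higher and 5.48% lower. The riser was EIF2S2, a subunit of eIF2, by 0.28 (adjusted p = 0.00391) and 0.29 (adjusted p = 0.00136). The VHL fallers were EIF2AK2 (-0.32, adjusted p = 0.00223) and EIF2AK3 (-0.31, adjusted p = 0.00625), the kinases PKR and PERK, and EIF2B4, a subunit of the exchange factor of eIF2 (-0.22, adjusted p = 0.0153). EIF2AK4 (GCN2), the kinase that senses uncharged tRNA, is not analysed here.

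Of the other bZIP genes, 34 of 38 measured, 4 rose and 1 fell in Vec cells, and 9 rose and 1 fell in VHL cells, with medians of 0.04 and 0.03. XBP1, a factor of the unfolded protein response, rose by 0.84 (adjusted p = 3.52e-05) and 0.62 (adjusted p = 0.000247). NFE2L1 rose by 0.32 (adjusted p = 0.00134) and 0.4 (adjusted p = 0.000112), FOSL1 by 0.33 (adjusted p = 0.015) and 0.39 (adjusted p = 0.00254), and NFIL3 by 0.19 (adjusted p = 0.0313) and 0.4 (adjusted p = 0.000101). MAFF rose in VHL cells (0.69, adjusted p = 0.000828) and read 0.35 in Vec cells (adjusted p = 0.0732). CEBPD fell in Vec (-0.29, adjusted p = 0.0314) and ATF2 in VHL cells (-0.44). XBP1 is spliced to its active form, which a gene-level value does not show.

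Downstream, 25 of the 34 measured effector genes (of 38 listed) rose in Vec cells and 27 in VHL cells, and none fell. Their medians were 0.54 and 0.75. CHAC1, which degrades glutathione, rose by 2.68 and 2.52, CTH, which makes cysteine from cystathionine, by 2.14 and 2.38, and ASNS, the asparagine synthetase, by 1.48 and 1.55. The list is of known ATF4 and CHOP targets drawn up with earlier results on these samples known, so its direction is not independent evidence. The difference of responses was called for 5 of its members, all larger in VHL cells. DDIT4, an inhibitor of mTORC1, rose by 1.25 and 2.26, a difference of 1.01 ± 0.06 (adjusted p = 1.31e-05). MTHFD2 differed by 0.63 (adjusted p = 0.00428), INHBE by 0.79 (adjusted p = 0.00498), PCK2 by 0.7 (adjusted p = 0.00695) and STC2 by 0.57 (adjusted p = 0.00428), of which STC2 was named after its values were seen.

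None of the ER chaperones and other listed genes of the ATF6 and IRE1 branches, ERN1 and MBTPS1 among them, was called higher. Of 17 measured (of 18), 2 fell in Vec cells (SDF2L1, -0.38, adjusted p = 0.0168, and DNAJB9, -0.28, adjusted p = 0.0367) and 1 fell in VHL cells (MANF, -0.21, adjusted p = 0.0213). HSPA5, the chaperone BiP, read -0.06 (adjusted p = 0.613) and -0.08 (adjusted p = 0.378). Among 10 of 11 genes of the Tribbles family and of ATF4 degradation, none was called in Vec cells, and SIAH1, a ubiquitin ligase, rose in VHL cells (0.21, adjusted p = 0.0132).

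**Figure D4:**
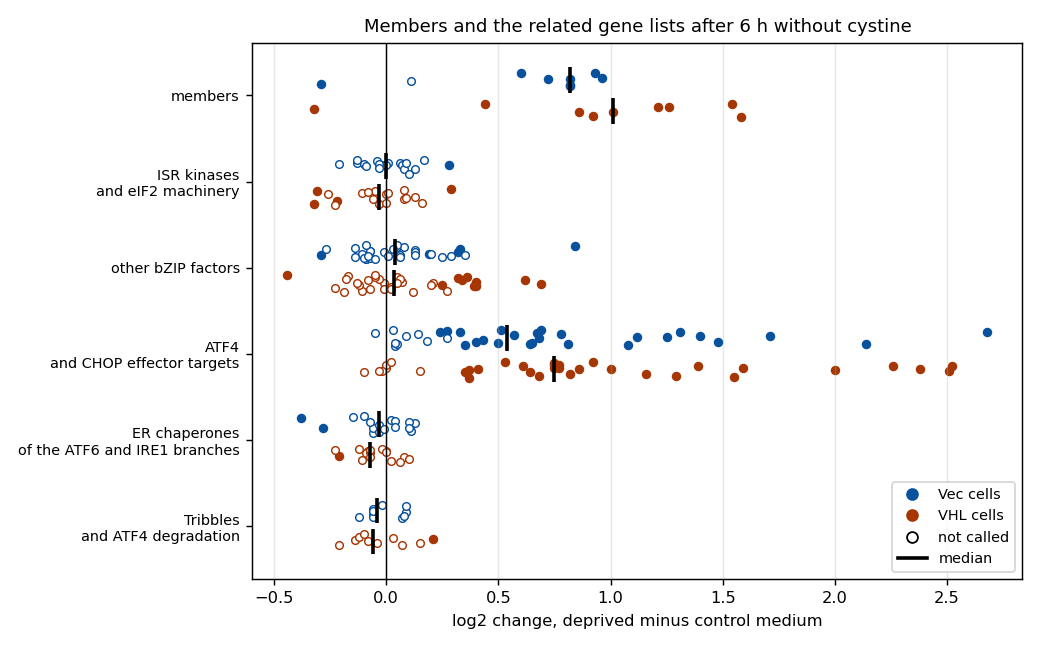
Log2 change after 6 h without cystine for the 9 members and for each gene of the 5 related lists (points), in Vec and in VHL cells, with the median of each list as a black bar and open points for genes not called. Members and effector genes lie mostly right of 0, with medians of 0.82 and 0.54 in Vec cells, and the other 4 lists have medians between -0.07 and 0.04.

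Genes with the most similar pattern were found by centring each 12-array profile on its mean and taking the root mean square difference on the log2 scale. This describes likeness across 12 arrays of 4 groups, and all profiles share those arrays. The nearest genes outside the set were PMAIP1 for TRIB3 (0.09), PPP1R15A (0.11) and ATF3 (0.23). MTHFD2 and SLC1A4 (0.18 each) were nearest to DDIT3, WARS1 (0.12) to CEBPB, CARS1 and GTPBP2 (0.1 each) to CEBPG, and ECM2 and TSC22D3 (0.2 each) to NUPR1. ATF5, with a profile of smaller range, was nearest to UBAP2L, SAP130 and RAP2B (0.07 each). Within the set, CEBPB and CEBPG (0.13) and TRIB3 and PPP1R15A (0.13) were closest to each other. ATF5 stood farthest from the other members, and its smallest difference from any of them was 0.59, to ATF4. The profiles of ATF5 and ATF4 were not alike, since their 4 groups ran in reverse order. That difference exceeded the root mean square of either centred profile, 0.28 for ATF5 and 0.32 for ATF4.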

How the data were processed

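Expression was measured on Affymetrix arrays in 4 groups of 3. Values are the authors' deposited log2 intensities. The log base was read from their range, and the normalization is not given in the sources used here. Of 22215 probe sets, 19064 name 1 gene, 1043 several and 2108 none in the platform annotation. Symbols were updated to RefSeq for 19052. Each of 11963 genes took its probe set with the highest mean. A group-means model over all 12 arrays was fitted with limma 3.58.1 in R 4.3.3 (8 residual and 12.7 moderated degrees of freedom) and tested on simulated data. P-values were adjusted over 11963 genes, with a threshold of 0.05.

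The members, lists and tests were chosen with earlier results of these data known. Named were all 9 members and, of each list, the called genes with the smallest adjusted p. The limits were 4 per line and 2 in the difference of responses. Also named were up to 3 of the genes most alike to each member called in both lines. Other genes named were chosen after their values were seen: EGLN3, HSPA5 and any list gene beyond these numbers. Alternatives were other scaling, filtering, probe set and variance choices, leaving out each array, and a replicate block. The labels do not say whether arrays with the same replicate number were handled together. Residual correlations between same-numbered arrays of different groups ran from -0.268 to 0.235 (median 0.0526). Between arrays of other numbers they ran from -0.35 to 0.291 (median -0.0179). These overlapping ranges cannot decide whether the arrays were paired.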

Additional observations from a re-analysis of the deposited data

Results flagged for a closer look

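The response to 6 h without cystine differed between the lines by a test of the difference itself for ATF3 (0.76 on the log2 scale, larger in VHL cells), DDIT3 (0.6) and ATF4 (0.33). The ATF4 call was lost under 16 of 20 alternatives, among them each of the 12 that left out 1 array, whereas the ATF3 and DDIT3 calls held under all 19 and 20 run for them. In each, the control level of the VHL cells lay below that of the Vec cells. Without cystine the VHL level stayed below the Vec level for ATF3 and ATF4 and lay above it for DDIT3, a DDIT3 call that was lost in 3 of the 6 fits that left out 1 array (adjusted p up to 0.0848).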

How the results depend on the processing

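Over 54 results under 855 alternatives, 800 kept their direction and side of the threshold, 46 fell short of it, 2 newly passed it and 7 reversed. Some settings, the variance trend and the replicate block among them, cannot alter a log2 change in this balanced design. In those settings only the call could move, so the kept directions are no added evidence. Without probe sets shared between transcripts (names ending in _x_at or _s_at) 6 members could be tested, and ATF3, ATF5 and NUPR1 could not. Of the 6, 5 were called in the Vec response, 6 in the VHL response and 1 in the difference of responses. Between the lines 5 were called in control medium and 5 without cystine. Of all 8369 genes tested in that setting, 233, 771, 11, 3427 and 3505 were called, in the same order. In the difference DDIT3 kept its call and ATF4 lost it (adjusted p = 0.0688). The reversals were in values near 0 or in the dim ATF5 probe set. That probe set gave 0.126 for the VHL response, 0.195 for the difference of responses and -0.03 between the lines in control medium. The ATF5 difference of responses also became 0.021 with the mean of probe sets, 0.052 without Vec replicate 1 and 0.006 without VHL replicate 2 of the medium without cystine. Leaving out 1 array at a time, the ATF5 difference ranged from -0.114 to 0.052 and the CEBPB difference from -0.014 (without Vec control replicate 3) to 0.164. With the replicate number as a block, 7 members were called in the Vec response, 9 in the VHL response, 2 in the difference, and 8 and 8 between the lines. Among all 11963 genes the counts in that setting were 434, 1326, 16, 5517 and 5664. ATF5 in Vec cells (adjusted p = 0.0555), the ATF4 difference (0.0842) and CEBPB in control medium (0.0586) were not called. In 5 of 12 arrays the closest array of another group bore the same number. Of the array pairs across groups, 18 shared a number and 36 did not, so such matches also arise by chance. This count cannot decide whether the arrays were paired. Over all 11963 genes, 500 were called in Vec cells, 1392 in VHL cells and 16 in the difference. Alternatives that tested all 11963 genes called 253 to 728, 764 to 1780 and 11 to 45, in the same order. Median centring turned the VHL split from 737 higher and 655 lower to 550 and 873, while the members kept their directions.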
